A study of Mus musculus with 9 samples.

Results

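Transcripts of 44 genes that act in mitosis or on the mitotic spindle were measured in murine splenic CD4+ T cells. The cells were kept in medium or stimulated through the T cell receptor, with or without TRAIL. The genes were picked by symbol from the 55487 genes of the deposited expression table. Each of the 44 symbols was found, at the same GRCm38 locus as in GENCODE M21, and each passed the filter used for testing (at least 1 TPM in at least 3 libraries), as did 15536 genes in all. TPM values divide the reads of a gene by transcript length and scale every library to the same total, so that levels of different genes can be set side by side. The lowest value of any of the 44 genes in any library was 1.48 TPM, for Cdc25c.

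A cell enters mitosis when the kinase CDK1, bound to cyclin A or cyclin B, has been activated. Condensin then compacts the chromosomes, the kinetochore attaches them to spindle microtubules, and the spindle checkpoint holds the anaphase-promoting complex in check until all are attached, after which the central spindle guides division of the cell. Most of these transcripts accumulate in G2 and M phase, after DNA replication, and a resting naive T cell is outside the cycle until antigen receptor and costimulation drive it in.

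All cells came from C57BL/6 mice that were wild type for the TRAIL receptor (Trail-r+/+; the study's methods give females of 6 to 7 weeks) and were enriched from spleen by negative selection. One group was kept in medium, for a time that the labels do not give. The second was stimulated for 24 h with 2 antibodies, one against CD3 of the T cell receptor complex (3 µg/ml) and one against the costimulatory receptor CD28 (2 µg/ml). The third received these antibodies and, over the same 24 h, 10 µg/ml of TRAIL, which belongs to the tumor necrosis factor family of ligands. Each group had 3 libraries. Nothing in the labels says whether replicates came from separate mice, so p-values measure only the spread between these libraries, which may be technical.

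Some library-wide facts bear on the values that follow. The T cell marker list (8 genes, Cd3e and Cd4 among them) summed to 3523 to 3827 TPM in medium and TRAIL-treated libraries and to 3332 to 3387 TPM in stimulated libraries. Within it, genes went opposite ways with stimulation, with Cd3g lower (group means 615 and 299 TPM), Cd4 lower (384 and 220 TPM) and Cd2 higher (392 and 839 TPM). Markers of other spleen cells moved with the groups as well. The 7 B cell markers summed to 2042 to 2117 TPM in medium, 159 to 175 TPM after stimulation and 856 to 958 TPM with TRAIL, and the 10 myeloid markers to 1913 to 2174, 59.1 to 73.4 and 1385 to 1602 TPM. The 9 erythroid markers summed to 2142 to 2612, 246 to 258 and 695 to 758 TPM. One of them, Tfrc, a gene that activated T cells use too, moved the other way, at 41.2 to 57.0, 209 to 231 and 78.0 to 103 TPM, and the 8 others summed to 2101 to 2555, 26.4 to 41.3 and 617 to 667 TPM. The 6 markers of germinal centre B cells and plasma cells summed to 509 to 636, 66.6 to 81.0 and 412 to 452 TPM, although Prdm1 among them was higher after stimulation (6.35 and 14.1 TPM). The 2 CD8 markers summed to 110 to 118, 94.2 to 105 and 46.9 to 49.4 TPM, and the 4 NK cell markers to 187 to 230, 58.0 to 80.0 and 68.9 to 79.8 TPM. The part of these cells in the mitotic transcripts was not tested, and in bulk RNA fewer cells with a transcript and less of it per cell cannot be told apart.

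Stimulated replicate 1 stood apart from its partners by transcript length. Its values lay above the mean of the other 2 stimulated libraries for the quintile of genes with the shortest transcripts (up to 1002 bases, median log2 difference 0.09) and below it for that with the longest (from 4644 bases, median -0.45), and 36 of the 44 mitotic genes were lower in it. Mki67, whose longest transcript runs to 10061 bases, measured 18.2 TPM in it and 51.8 and 48.0 TPM in its partners. TRAIL-treated replicate 3 leaned the same way (-0.01 for the shortest and -0.21 for the longest quintile), and 34 of the 44 genes were lower in it. Medium replicate 2 (-0.11 and 0.15) and TRAIL-treated replicate 1 (0.01 and 0.19) leaned the other way. Without stimulated replicate 1, Incenp also rose with stimulation by adjusted p and Hmmr no longer passed, Plk1, Incenp, Cenpe, Cenpf and Mki67 also fell with TRAIL against stimulated cells, and 7 more genes (Ccnb1, Plk1, Bub1b, Cenpe, Cenpf, Mki67 and Kif20a) were lower with TRAIL against medium, where the share of all tested genes went from 24.6% to 30.9%. With the 2-fold criterion added, leaving it out made Top2a called with stimulation (1.06) and Ccna2 and Bub1b called with TRAIL (-1.03 and -1.09), and Ccnb1 was no longer called (-0.89).

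**Figure D1:**
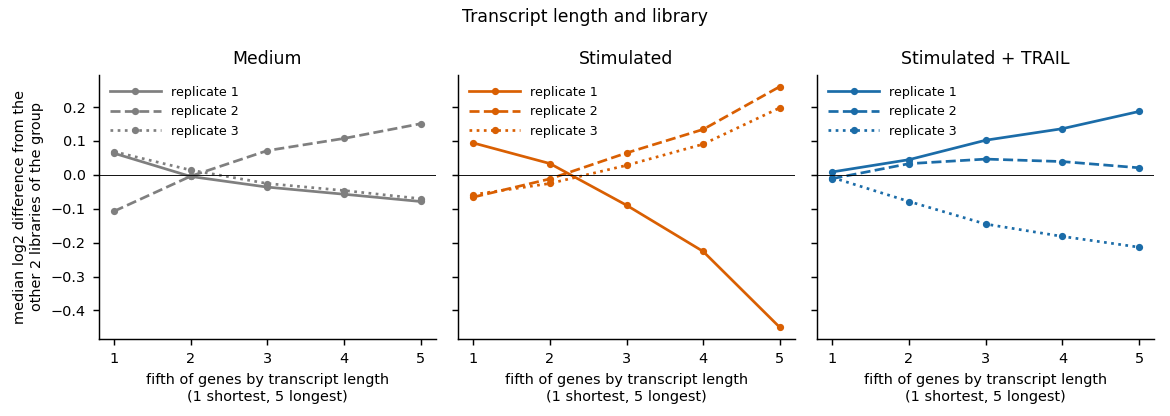
Median log2 difference of each library from the other 2 libraries of its group, for quintiles of the tested genes ordered by transcript length (1 shortest, 5 longest), one panel per group and one line per library. Stimulated replicate 1 falls from 0.09 to -0.45 from the shortest to the longest quintile. Its partners, whose reference includes it, climb to 0.26 and 0.20, so these lines are not independent.

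Levels of the 44 genes spanned more than 2 orders of magnitude on the TPM scale, with a median of 13.2 TPM over the genes' means in 9 libraries. Smc4, an ATPase subunit of condensin, stood far above the rest at a mean of 360 TPM. It was followed by Top2a, the topoisomerase that untangles sister chromatids, at 67.6 TPM, by Cenpa, the centromeric histone H3 variant, at 51.5 TPM, and by Mki67, which coats mitotic chromosomes, at 46.9 TPM. Smc2, the partner of Smc4 in condensin, and Incenp, the scaffold of the chromosomal passenger complex, also exceeded 30 TPM on average, which made 6 genes, whereas Cdc25c, Anln, Ttk and Cenpf averaged under 5 TPM. Of the group means, the stimulated one was the highest for 28 genes, the medium one for 15 and the TRAIL one for Cenpa alone. The TRAIL group had the lowest mean for 40 genes.

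**Figure D2:**
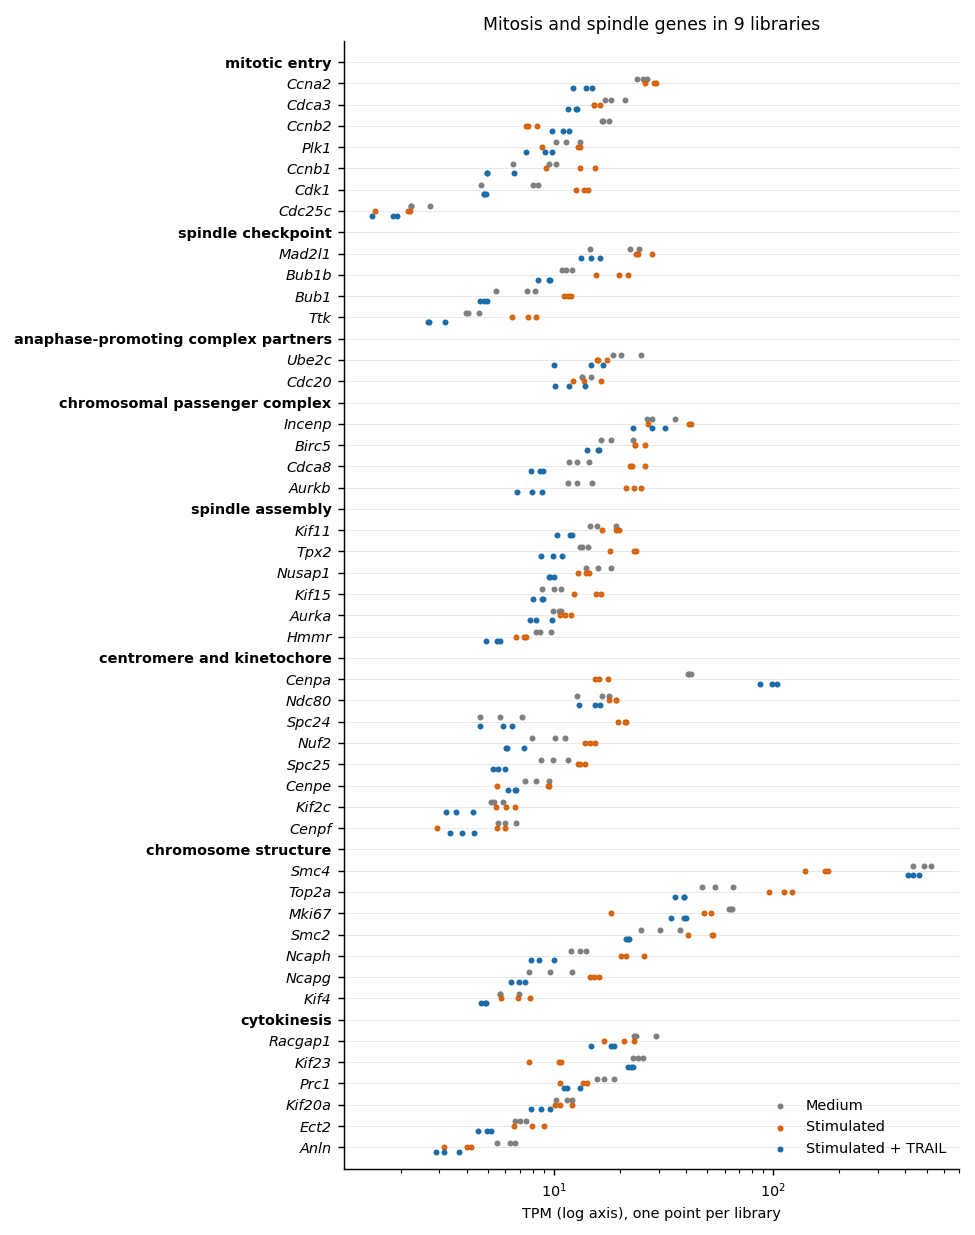
TPM (log axis) of the 44 genes, ordered by role and by mean level, with one point per library (grey, medium; orange, stimulated; blue, stimulated with TRAIL). For most genes the blue points lie left of the orange ones, and Smc4, Cenpa, Kif23 and Ccnb2 show the opposite order.

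Summed over the 44 genes, the level was 1174 ± 78.7 TPM in medium, 953 ± 101 TPM after stimulation and 992 ± 56.2 TPM with TRAIL (mean ± SD, n = 3). Smc4 alone held 39.6 to 41.9% of that sum in the medium libraries, 16.6 to 17.4% in the stimulated ones and 42.7 to 44.4% in the TRAIL-treated ones. With Smc4 set aside, a choice made after its values were seen, the other 43 genes summed to 693 ± 33.5, 789 ± 79.5 and 557 ± 35.5 TPM. The order of the groups thus differed with and without this 1 gene, and the ranges of the medium (663 to 729 TPM) and stimulated libraries (699 to 848 TPM) overlapped for the 43 genes, while the TRAIL-treated libraries (516 to 580 TPM) lay below both.

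The first comparison set stimulated cells against cells in medium. A gene was called changed at an adjusted p under 0.05 with an at least 2-fold change on log2(TPM + 1), a scale on which changes of low genes are understated. Only 5 of the 44 genes (11.4%) were called, 1 higher and 4 lower, against 31.9% of all tested genes (12.4% higher and 19.5% lower). Spc24, a subunit of the NDC80 complex of the outer kinetochore, rose, and Smc4, Cenpa, Kif23 and Ccnb2 fell. By adjusted p alone, 16 genes rose (28.8% of all tested genes did) and 8 fell (40% of all), and 20 did not pass. The stimulated libraries lay wholly above the medium ones for 16 genes and wholly below for 11, where 29.9 and 42.6% of all tested genes did so. The members' median log2 fold change was 0.14, beside -0.15 over all tested genes. That median was 0.41 with quantile normalization and 0.38 with the length trend removed, beside 0.04 and 0.01 over all. With the trend on transcript length removed, 25 rose and 5 fell, and with quantile normalization 26 rose and 5 fell, while the shares of all tested genes moved too, to 36.7% higher and 36% lower and to 35.9% and 33.4%. Without stimulated replicate 1 the counts were 17 and 7 (29% and 38.3% of all). By the 2-fold criterion, 3 were called higher and 4 lower with the length trend removed (30.5% of all called). With quantile normalization 4 were called higher and 3 lower (30.1% of all). Of the 16 rises, 14 passed in each of the 19 alternative settings that can change a p-value (18 for the 4 genes under 5 TPM on average), the exceptions being Birc5 and Spc25, and so did 4 of the 8 falls, the exceptions being Hmmr, Mki67, Prc1 and Anln.

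TRAIL added to the stimulation, the comparison closest to the study's question of how TRAIL acts on activation, moved more of them. Called genes numbered 17 of 44 (38.6%, against 30.9% of all tested genes), 14 lower (14.3% of all were called lower) and 3 higher (16.6% of all). By adjusted p alone, 28 fell and 4 rose, while 33.5% of all tested genes passed in each direction, and 12 genes did not pass. The 3 TRAIL-treated libraries lay below the 3 stimulated ones without overlap for 29 genes and above them for 4, where 34.9 and 35.5% of all tested genes did so. The median log2 fold change of the 44 genes was -0.52, and that of all tested genes 0.01. Without stimulated replicate 1, 33 genes fell and 4 rose by adjusted p (34.7% and 32.5% of all tested genes), and the median was -0.62 beside -0.02 over all. With median-of-ratios scaling 25 fell and 4 rose, where 31.6% and 38.2% of all did. The called genes moved too, to 10 lower and 3 higher with that scaling (31% of all called in either direction). They were 5 lower and 2 higher with a pseudocount of 5 (18.6% of all) and 16 lower and 3 higher with one of 0.1 (38% of all). All 4 rises and 23 of the 28 falls passed in each of the 19 settings, and Cdca3, Aurka, Hmmr, Kif4 and Kif20a failed in at least 1.

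Against medium, the TRAIL-treated libraries differed little by the 2-fold criterion, with Cenpa the 1 gene called among the 44 (2.27%, against 4.62% of all tested genes). It was higher (2.49% of all were called higher), and none of the 44 was called lower by limma (2.13% of all), although 32 were lower at an unadjusted p under 0.05 (33.3% of all). By adjusted p alone, 23 genes were lower (24.6% of all tested genes were) and Cenpa was higher (8.03% of all), with a median log2 fold change of -0.46 beside -0.18 over all genes. The 3 TRAIL-treated libraries lay wholly below the 3 medium libraries for 34 genes and wholly above for 1, where 38.2 and 12.4% of all tested genes did so. The 23 and the share of all tested genes moved with the settings. Without stimulated replicate 1, 30 members and 30.9% of all genes were lower. With median-of-ratios scaling, which moved the median of all genes by 0.17, 10 members and 13.7% of all genes were lower. With quantile normalization and with the length trend removed the members numbered 13 each (16.2% and 16.1% of all). Without TRAIL-treated replicate 3 they numbered 12 (15.2% of all), without TRAIL-treated replicate 2 and without medium replicate 3 14 each (17.7% and 15.9%), and without medium replicate 1 15 (17.8%), and 9 of the 23 passed in each of the 19 settings. Relative to all genes, the members' median was -0.28 in the main fit, -0.28 with median-of-ratios scaling and -0.25 with quantile normalization. It was -0.22 with the length trend removed, -0.19 with a pseudocount of 5 and -0.43 with no filter. These 3 comparisons share their libraries in pairs and are not independent of each other.

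**Figure D3:**
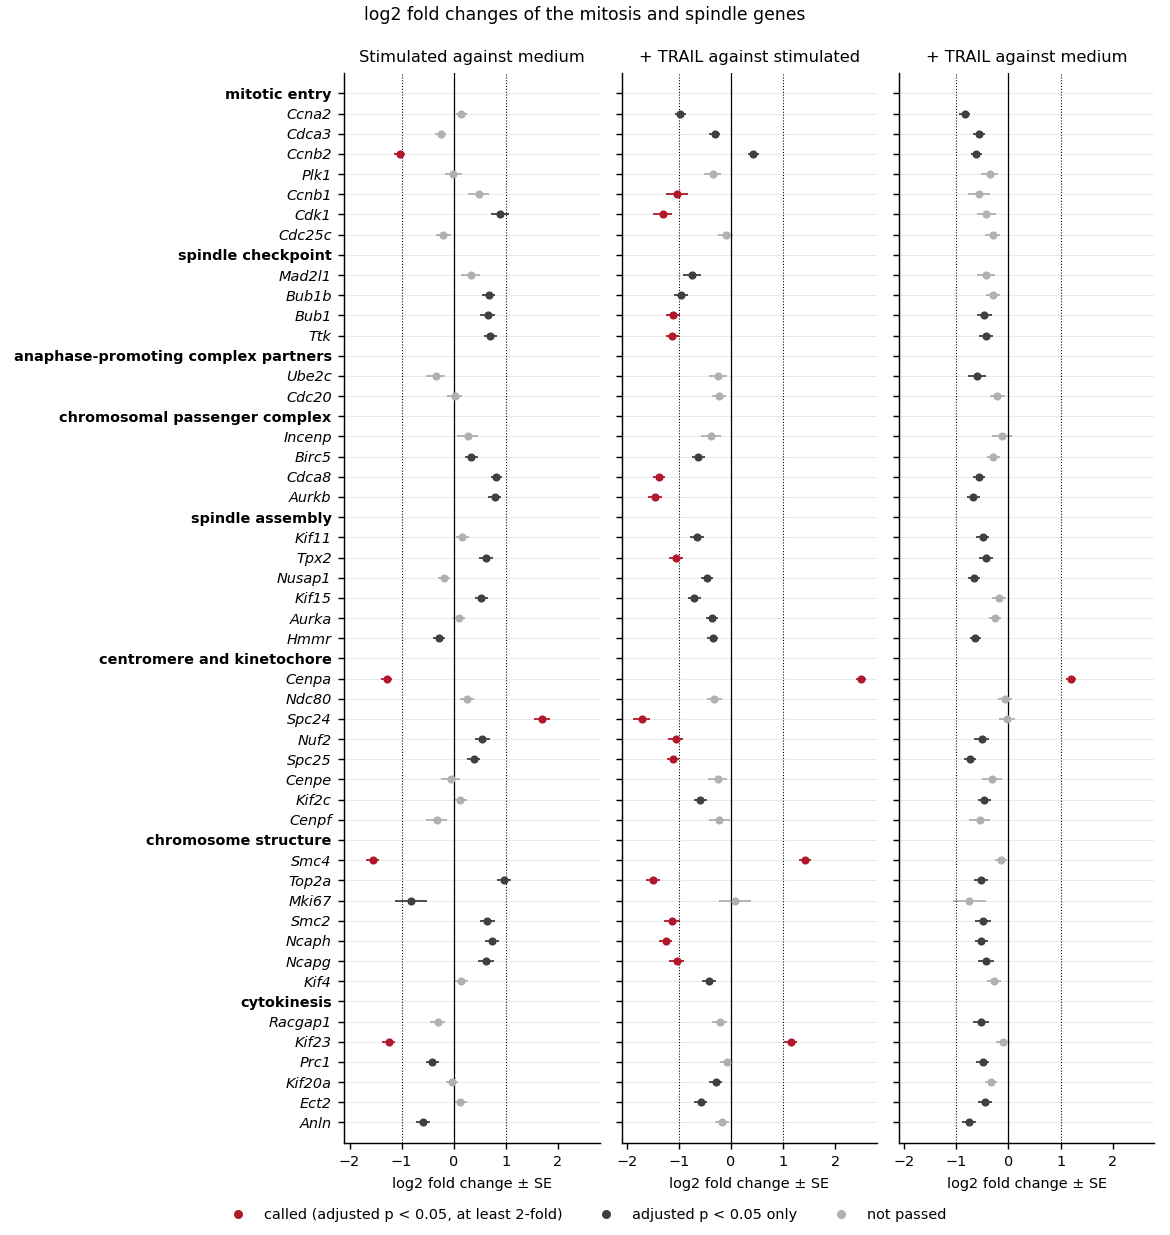
log2 fold change ± SE on log2(TPM + 1) for the 44 genes by role in the 3 comparisons (red, called; dark grey, adjusted p under 0.05 without a 2-fold change; light grey, not passed; dotted lines at 2-fold). Most points of the middle panel lie left of 0, with Cenpa (2.49), Smc4 (1.42), Kif23 (1.15), Ccnb2 (0.42) and Mki67 (0.07, not passed) to the right.

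Of the 44, 16 members (36.4%) rose with stimulation and fell with TRAIL by adjusted p, as did 24.9% of all tested genes. They were the checkpoint genes Bub1, Bub1b and Ttk, the passenger genes Aurkb, Birc5 and Cdca8, the kinetochore genes Nuf2, Spc24 and Spc25, the chromosome genes Ncapg, Ncaph, Smc2 and Top2a, the spindle genes Kif15 and Tpx2, and Cdk1. A further 4 (9.09%) did the reverse, namely Ccnb2, Cenpa, Kif23 and Smc4, where 29.8% of all tested genes did. Another 7 (Cdc20, Cdc25c, Cenpe, Cenpf, Incenp, Ndc80 and Plk1) passed in none of the 3 comparisons with all libraries, although each of them but Cdc20 passed in at least 1 of the 19 settings. Because the stimulated libraries enter both contrasts with opposite sign, the reversals describe the 2 sets of values and are no second line of evidence.

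Genes of G2 and M phase are known to share promoter elements, the CCAAT box, bound by NF-Y, and the cell cycle genes homology region (CHR), through which the DREAM and MuvB complexes act. Promoter windows from RefSeq on GRCm38.p6, from 250 bases before to 50 bases after the gene start, were at hand for 36 of the 44 genes. They were searched on both strands for the letters CCAAT, for TTTGAA (one form of the CHR) and for the E2F letters TTGGCGC and TTCCCGC; none of these contains another, but a CCAAT box read on the other strand can overlap the former E2F letters. CCAAT was found in 27 of the 36 windows (75.0%, against 37.92% of 27025 promoters) and TTTGAA in 28 (77.78%, against 18.11%). Both stood together in 24 windows (66.67%), a combination held by 7.12% of all promoters and by 5.48% of the 9934 promoters of tested genes. The E2F letters were found in 7 windows (19.44%, against 6.93% of all and 12.36% of those of tested genes). A match describes letters, not a bound site.

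Both elements occurred in every class of response to TRAIL. Of the 23 members in the table that fell with TRAIL, 14 had both elements, and so did the 3 in the table that rose (Ccnb2, Cenpa and Kif23) and 7 of the 10 that did not pass. Among the 37 windows of the other G2 and M phase genes listed, 24 held CCAAT, 20 TTTGAA, 14 both and 9 the E2F letters, and among the 25 of DNA replication genes 16 held CCAAT, 4 TTTGAA, 3 both and 14 the E2F letters. The windows of 5 members are shown from 150 bases before to 30 bases after the start, 5′ to 3′ on the gene's strand, because the first 2 genes fell with TRAIL and the last 3 rose; they were picked after these values were seen. Capitals mark CCAAT and TTTGAA or their reverse complements ATTGG and TTCAAA. Top2a lies at chr11:99024160-99024339 (minus strand), Ccnb1 at chr13:100786457-100786636 (minus), Cenpa at chr5:30666736-30666915 (plus), Kif23 at chr9:61946770-61946949 (minus) and Ccnb2 at chr9:70421525-70421704 (minus).
Top2a: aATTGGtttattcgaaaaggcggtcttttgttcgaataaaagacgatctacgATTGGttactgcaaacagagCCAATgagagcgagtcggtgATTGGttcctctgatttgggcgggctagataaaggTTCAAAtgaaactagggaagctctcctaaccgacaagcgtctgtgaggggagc
Ccnb1: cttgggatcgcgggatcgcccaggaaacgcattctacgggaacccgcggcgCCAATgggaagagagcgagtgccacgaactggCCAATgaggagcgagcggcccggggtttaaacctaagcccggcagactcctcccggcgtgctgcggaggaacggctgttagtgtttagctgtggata
Cenpa: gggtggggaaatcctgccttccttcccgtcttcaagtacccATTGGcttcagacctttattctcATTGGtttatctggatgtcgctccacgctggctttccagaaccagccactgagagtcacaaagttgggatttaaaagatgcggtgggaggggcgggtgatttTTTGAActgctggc
Kif23: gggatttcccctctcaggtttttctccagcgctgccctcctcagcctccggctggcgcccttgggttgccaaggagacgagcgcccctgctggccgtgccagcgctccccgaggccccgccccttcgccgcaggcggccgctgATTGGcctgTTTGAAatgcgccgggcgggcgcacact
Ccnb2: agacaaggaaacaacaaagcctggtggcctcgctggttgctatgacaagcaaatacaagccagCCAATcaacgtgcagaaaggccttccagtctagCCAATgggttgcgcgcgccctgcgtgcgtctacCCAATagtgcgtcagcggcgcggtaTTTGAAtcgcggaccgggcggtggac
Top2a showed 4 CCAAT boxes and 1 TTTGAA, the latter beginning 23 bases before the start. Ccnb2 showed 3 CCAAT boxes, at bases -87, -54 and -21, with TTTGAA from base 5 after the start, and Cenpa 2 boxes with TTTGAA from base 17. Kif23 held 1 box 7 bases before the start with TTTGAA from base 3. Ccnb1 had 2 CCAAT boxes in this stretch and no TTTGAA.

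Among the genes of mitotic entry, Cdk1, Ccna2 and Ccnb1 fell with TRAIL, while Ccnb2 rose. Cdk1, the kinase that drives mitosis, measured 8.02, 4.66 and 8.50 TPM in medium, 13.7, 14.3 and 12.7 TPM after stimulation and 4.92, 4.81 and 4.81 TPM with TRAIL. The stimulated libraries stood above both other groups without overlap. Cdk1 rose by a log2 fold change of 0.89 ± 0.18 (SE) with stimulation (adjusted p = 0.0014) and fell with TRAIL (-1.31 ± 0.18, adjusted p = 9.6e-05). Ccna2, the cyclin of S phase and early mitosis and the most abundant gene of this group, measured 26.4, 23.9 and 25.4 TPM in medium, 26.0, 28.5 and 29.3 TPM after stimulation and 14.1, 14.9 and 12.2 TPM with TRAIL. Medium and stimulated libraries overlapped, and the TRAIL-treated ones lay below both. Ccna2 did not pass with stimulation (0.14 ± 0.11, adjusted p = 0.26), although it rose in 3 of the 19 settings. Its change with TRAIL was -0.98 ± 0.11 against stimulated cells (adjusted p = 1.7e-05) and -0.84 ± 0.11 against medium (adjusted p = 4.0e-04). Reads of Ccna2 may in part belong to Exosc9, a gene on the opposite strand that overlaps it (mean 41.3 TPM), since no source used here says whether counting used strand. The same holds for 7 further genes overlapped on the opposite strand by one with a mean of at least 1 TPM, namely Cdc20 (54.2 TPM for the overlapping gene), Kif20a (30.3 TPM), Kif4 (22.6 TPM), Prc1 (19.4 TPM), Cdca8 (10.9 TPM), Ncapg (9.25 TPM) and Nusap1 (3.94 TPM), while Ndc80 overlaps a gene on its own strand (1.24 TPM).

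The 2 B-type cyclins went apart. Ccnb2 measured 16.8, 16.6 and 17.8 TPM in medium, 7.45, 8.37 and 7.59 TPM after stimulation and 11.8, 10.9 and 9.79 TPM with TRAIL. The 3 groups did not overlap, with medium highest and stimulated lowest. Ccnb2 fell with stimulation (-1.04 ± 0.11, adjusted p = 1.1e-05) and rose with TRAIL (0.42 ± 0.11, adjusted p = 0.0050). Its fall stayed short of 2-fold in 3 of the 20 alternatives, at -0.95 with median-of-ratios scaling and at -0.77 where it was weakest. Ccnb1, the other cyclin B, fell with TRAIL at the edge of the criterion (-1.04 ± 0.21, adjusted p = 0.0013, and -0.89 without stimulated replicate 1). With stimulation it did not pass (0.48 ± 0.21, adjusted p = 0.065), although it rose in 3 of the 19 settings. Cdca3, a trigger of mitotic entry, fell under TRAIL (-0.31, adjusted p = 0.024) but failed in 5 of the 19 settings, among them the length trend removed (-0.13, adjusted p = 0.26), and neither Plk1, the polo kinase (-0.36 ± 0.17, adjusted p = 0.085), nor the phosphatase gene Cdc25c (-0.10 ± 0.14, adjusted p = 0.55) passed. Plk1 fell with TRAIL in 2 settings, without stimulated replicate 1 (-0.53 ± 0.14, adjusted p = 0.0076) and with quantile normalization (-0.40, adjusted p = 0.018), and Cdc25c in 1, quantile normalization (-0.38, adjusted p = 0.040).

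All 4 spindle checkpoint genes fell with TRAIL by adjusted p, as did 33.5% of all tested genes. Mad2l1, whose product binds CDC20 to hold anaphase back, was the most abundant, at 24.4, 14.7 and 22.3 TPM in medium, 28.0, 23.7 and 24.3 TPM after stimulation and 14.7, 16.1 and 13.3 TPM with TRAIL. Its medium libraries overlapped with both other groups. Ttk, the kinase that starts checkpoint signaling and the gene with the largest fall of the 4, measured 4.55, 4.04 and 3.97 TPM in medium, 6.45, 7.62 and 8.26 TPM after stimulation and 2.70, 2.65 and 3.18 TPM with TRAIL. Here the 3 groups did not overlap. The changes with TRAIL ran from -0.74 ± 0.17 for Mad2l1 (adjusted p = 0.0033) through -0.96 ± 0.13 for Bub1b and -1.11 ± 0.14 for Bub1 to -1.13 ± 0.13 for Ttk (adjusted p = 2.1e-05). With stimulation Bub1, Bub1b and Ttk rose, by 0.65, 0.67 and 0.70 on the log2 scale, and Mad2l1 did not pass (0.32 ± 0.17, adjusted p = 0.13), although it rose in 3 of the 19 settings (0.75, adjusted p = 0.022 with the length trend removed).

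The 2 genes that work with the anaphase-promoting complex, Cdc20, its activator, and Ube2c, its ubiquitin-conjugating enzyme, passed in neither comparison with stimulated cells. Ube2c measured 18.7, 24.9 and 20.3 TPM in medium, 15.7, 15.9 and 17.5 TPM after stimulation and 14.7, 16.8 and 10.0 TPM with TRAIL, so that stimulated and TRAIL-treated libraries overlapped. Its change with TRAIL was -0.26 ± 0.18 against stimulated cells (adjusted p = 0.22) and -0.61 ± 0.18 against medium (adjusted p = 0.026), the latter failing in 7 of the 19 settings. For Cdc20 the change with TRAIL was -0.23 ± 0.14 (adjusted p = 0.17). Cdc20 overlaps Elovl1 on the opposite strand.

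Of the chromosomal passenger complex, which corrects faulty attachments and later works at the central spindle, the enzyme and its small partners fell with TRAIL, and the scaffold did not pass with all libraries. Aurkb, the kinase, measured 12.8, 14.9 and 11.5 TPM in medium, 21.3, 25.0 and 23.2 TPM after stimulation and 7.93, 8.77 and 6.77 TPM with TRAIL, in 3 ranges that did not overlap. It rose with stimulation (0.78 ± 0.13, adjusted p = 3.9e-04) and fell with TRAIL (-1.46 ± 0.13, adjusted p = 4.4e-06). Incenp, the scaffold and the most abundant of the 4, measured 26.6, 35.6 and 28.0 TPM in medium, 26.8, 42.2 and 41.2 TPM after stimulation and 32.0, 28.0 and 22.8 TPM with TRAIL. Its low stimulated value came from replicate 1, and the 3 groups overlapped. Incenp changed by 0.26 with stimulation (adjusted p = 0.25) and by -0.38 ± 0.19 with TRAIL (adjusted p = 0.10). Without stimulated replicate 1 it rose with stimulation (0.47 ± 0.16, adjusted p = 0.024) and fell with TRAIL (-0.59 ± 0.16, adjusted p = 0.0078). Its rise also passed with quantile normalization and with the length trend removed (0.39 and 0.43). Cdca8, the gene of borealin, fell by 1.38 on the log2 scale and Birc5, the gene of survivin, fell by 0.63, and both rose with stimulation, by 0.82 and 0.34, a rise that for Birc5 failed in 8 of the 19 settings.

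All 6 spindle assembly genes fell with TRAIL by adjusted p with all libraries, and 1, Tpx2, was called, where 33.5% of all tested genes fell and 14.3% were called lower, while Aurka failed in 4 of the 19 settings (-0.17, adjusted p = 0.21 with the length trend removed) and Hmmr in 2. Tpx2, which activates Aurora A on the spindle, measured 13.2, 14.3 and 13.4 TPM in medium, 18.0, 23.7 and 23.1 TPM after stimulation and 10.9, 9.87 and 8.72 TPM with TRAIL, with no overlap between the groups. Its change with TRAIL was -1.05 ± 0.13 (adjusted p = 4.4e-05), or -0.97 with median-of-ratios scaling. Kif11, the motor that pushes the spindle poles apart and the most abundant of the 6, measured 19.2, 14.6 and 15.8 TPM in medium, 16.6, 19.2 and 19.8 TPM after stimulation and 12.0, 11.9 and 10.3 TPM with TRAIL. Medium and stimulated libraries overlapped, and TRAIL-treated ones lay below both (-0.65 ± 0.13 against stimulated cells, adjusted p = 0.0011). Kif15, a motor that can stand in for Kif11, Nusap1, a microtubule bundler, Aurka, the kinase Aurora A, and Hmmr, a spindle adaptor, had log2 fold changes of -0.71, -0.46, -0.36 and -0.35 with TRAIL. Hmmr was the 1 gene of the 44 that was lower in all 3 comparisons, although its fall with stimulation (-0.28 ± 0.11, adjusted p = 0.046) became 0.02 (adjusted p = 0.87) with quantile normalization and -0.24 (adjusted p = 0.10) without stimulated replicate 1, and failed in 13 of the 19 settings.

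The centromere and kinetochore genes held both the largest rise and the largest fall with TRAIL among the 44. Cenpa, the histone H3 variant that marks the centromere, measured 40.9, 41.4 and 41.9 TPM in medium, 17.6, 15.4 and 16.1 TPM after stimulation and 104, 98.9 and 87.1 TPM with TRAIL. Its groups were far apart, with TRAIL-treated libraries above medium and stimulated ones below. Cenpa fell with stimulation (-1.29 ± 0.10, adjusted p = 1.1e-06), rose with TRAIL against stimulated cells (2.49 ± 0.10, adjusted p = 1.2e-08) and was also higher than in medium (1.20 ± 0.10, adjusted p = 2.4e-05). Under each of the 20 alternative settings these calls of Cenpa held.

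Spc24 showed the opposite pattern. It measured 7.13, 5.69 and 4.58 TPM in medium, 21.1, 21.2 and 19.7 TPM after stimulation and 4.61, 6.41 and 5.85 TPM with TRAIL. The stimulated libraries stood apart, while medium and TRAIL-treated ones overlapped (-0.03 ± 0.16, adjusted p = 0.90). Spc24 rose with stimulation (1.69 ± 0.16, adjusted p = 5.3e-06) and fell with TRAIL (-1.72 ± 0.16, adjusted p = 4.9e-06). Its partners in the NDC80 complex changed less. Spc25 and Nuf2 rose with stimulation, by 0.38 and 0.55 on the log2 scale, and both fell with TRAIL (-1.12 and -1.06), whereas Ndc80 did not pass in either (0.25 ± 0.14, adjusted p = 0.13, and -0.32 ± 0.14, adjusted p = 0.063), although it passed in 3 and 2 of the 19 settings. Kif2c, a microtubule depolymerase that corrects attachments, fell with TRAIL (-0.59 ± 0.13, adjusted p = 0.0020), and the large kinetochore proteins' genes Cenpe and Cenpf did not pass in any comparison with all libraries (-0.26, adjusted p = 0.24, and -0.22, adjusted p = 0.35, with TRAIL). Their longest transcripts run to 7910 and 11130 bases, and without stimulated replicate 1 both fell with TRAIL (-0.49 ± 0.13, adjusted p = 0.0065, and -0.48 ± 0.14, adjusted p = 0.011). With the length trend removed both fell with TRAIL as well (-0.55, adjusted p = 0.0036, and -0.67, adjusted p = 8.7e-04), and Cenpe rose with stimulation (0.39 ± 0.13, adjusted p = 0.023).

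Within chromosome structure, the condensin genes split. Smc4 measured 525, 434 and 484 TPM in medium, 139, 178 and 173 TPM after stimulation and 460, 432 and 413 TPM with TRAIL. Stimulated libraries lay far below the others, and medium and TRAIL-treated libraries overlapped. Smc4 fell with stimulation (-1.56 ± 0.12, adjusted p = 1.0e-06) and rose with TRAIL (1.42 ± 0.12, adjusted p = 2.3e-06), and the difference from medium with TRAIL was -0.14 ± 0.12 (adjusted p = 0.38). Smc2, Ncaph and Ncapg, which code for the other ATPase and for 2 non-ATPase subunits of condensin, went the other way. Their log2 fold changes were 0.65, 0.73 and 0.61 with stimulation and -1.13, -1.26 and -1.04 with TRAIL.

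Top2a had the largest fall with TRAIL of this group. It measured 65.6, 47.1 and 54.3 TPM in medium, 95.4, 121 and 111 TPM after stimulation and 39.2, 39.1 and 35.6 TPM with TRAIL, in 3 ranges without overlap. Its changes were 0.97 ± 0.13 with stimulation (adjusted p = 9.9e-05), -1.50 ± 0.13 with TRAIL (adjusted p = 4.1e-06) and -0.53 ± 0.13 for TRAIL against medium (adjusted p = 0.014), the last of which failed in 3 of the 19 settings. Kif4, the chromosome-bound kinesin KIF4A, fell with TRAIL (-0.42 ± 0.13, adjusted p = 0.016) but failed in 1 of the 19 settings.

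Mki67, the gene of the proliferation antigen Ki-67, measured 64.2, 64.7 and 62.7 TPM in medium, 18.2, 51.8 and 48.0 TPM after stimulation and 39.8, 39.0 and 34.2 TPM with TRAIL. Stimulated replicate 1 lay below all TRAIL-treated libraries and its partners above them. With all libraries Mki67 fell with stimulation (-0.82 ± 0.31, adjusted p = 0.038) and did not pass with TRAIL (0.07 ± 0.31, adjusted p = 0.85). Without stimulated replicate 1 the changes were -0.35 ± 0.09 with stimulation (adjusted p = 0.0082) and -0.40 ± 0.09 with TRAIL (adjusted p = 0.0041), and with the length trend removed the TRAIL contrast was -0.33 ± 0.16 (adjusted p = 0.099), so its direction turned in these 2 of the 19 settings. Over the 20 alternatives the adjusted p of its fall with stimulation ran from 0.0082 to 0.14. The medium libraries, at 62.7 to 64.7 TPM, were the highest in either case.

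Of the 6 cytokinesis genes, 3 fell with stimulation by adjusted p, a share near the 40% of all tested genes that fell, and 3 did not pass. One of the latter, Ect2 (0.13, adjusted p = 0.39), rose with quantile normalization (0.42, adjusted p = 0.0027) and with the length trend removed (0.36, adjusted p = 0.0049). Racgap1, the GTPase-activating subunit of centralspindlin, was the most abundant, at 23.1, 29.3 and 23.7 TPM in medium, 16.9, 23.2 and 20.8 TPM after stimulation and 18.2, 18.7 and 14.8 TPM with TRAIL. Its stimulated libraries overlapped with both other groups. Kif23, the motor subunit of the same complex, measured 25.4, 22.9 and 24.2 TPM in medium, 7.67, 10.5 and 10.8 TPM after stimulation and 21.8, 22.5 and 22.8 TPM with TRAIL. Kif23 fell with stimulation (-1.25 ± 0.13, adjusted p = 1.0e-05) and rose with TRAIL (1.15 ± 0.13, adjusted p = 2.0e-05), and its TRAIL-treated libraries lay just under the medium ones.

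Ect2, the exchange factor that activates RhoA at the division plane, had the largest fall with TRAIL among the cytokinesis genes. It measured 6.66, 7.02 and 7.44 TPM in medium, 6.60, 8.97 and 7.94 TPM after stimulation and 5.19, 4.96 and 4.49 TPM with TRAIL. The TRAIL-treated libraries lay below both other groups, which overlapped (-0.58 ± 0.13 against stimulated cells, adjusted p = 0.0022). Kif20a, a kinesin of the central spindle, was lower by adjusted p (-0.30, adjusted p = 0.047) but failed in 10 of the 19 settings. Prc1, the bundler of antiparallel microtubules, and Anln, the scaffold anillin, fell with stimulation by 0.41 and 0.58 and did not pass with TRAIL against stimulated cells, and these falls failed in 3 settings for Prc1 and in 1 for Anln.

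For some partner genes, whose products work in 1 complex or family, the proportion after stimulation differed from that in the other 2 groups. The ratios below were chosen after the values were seen and carry no test. Smc4 exceeded Smc2 by 3.97 ± 0.16 (log2 ratio of TPM within a library, mean ± SD, n = 3) in medium, 1.74 ± 0.02 after stimulation and 4.33 ± 0.06 with TRAIL. Kif23 against Racgap1 stood at -0.06 ± 0.26, -1.08 ± 0.11 and 0.38 ± 0.21, and Ccnb2 against Ccnb1 at 1.00 ± 0.33, -0.65 ± 0.47 and 0.99 ± 0.26. Ndc80 exceeded Spc24 by 1.44 ± 0.36 in medium and 1.41 ± 0.35 with TRAIL, and fell below it after stimulation, at -0.14 ± 0.01. In all 4 pairs the stimulated libraries lay outside the range of the other 2 groups. For Incenp against Aurkb the values were 1.20 ± 0.12, 0.64 ± 0.27 and 1.81 ± 0.18, while for Ncaph against Smc2, at -1.24 ± 0.41, -1.12 ± 0.16 and -1.31 ± 0.18, the 3 group means lay within the spread of the medium libraries.

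**Figure D4:**
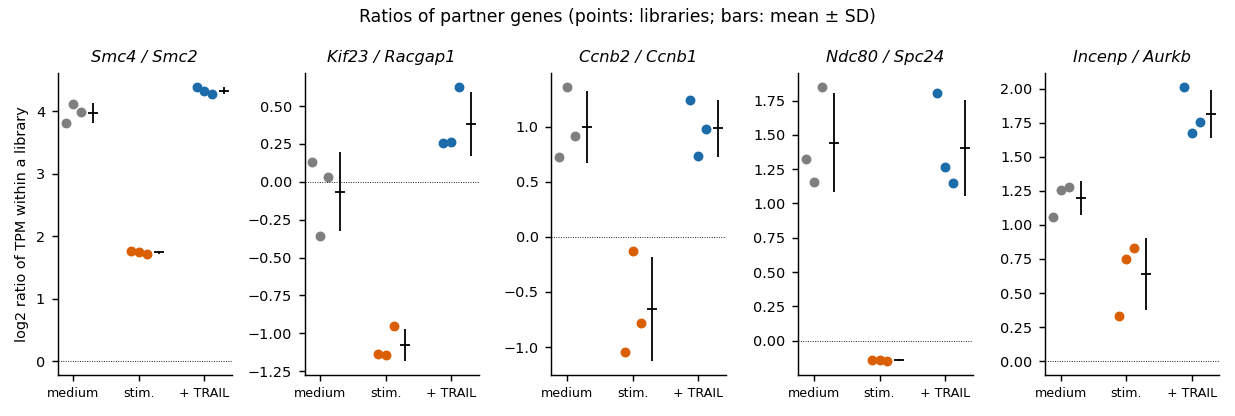
log2 ratio of TPM between 2 genes of a complex or family in each of 9 libraries (points; grey, medium; orange, stimulated; blue, stimulated with TRAIL), with the mean ± SD of each group of 3. The stimulated libraries lie lowest in all 5 panels, at a mean of 1.74 for Smc4 to Smc2 and -0.14 for Ndc80 to Spc24.

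Other genes of the cell cycle gave the frame for these values. Of 45 further G2 and M phase genes, 9 were called higher with stimulation and none lower, and 12 were called lower with TRAIL and none higher, with medians of 0.34 and -0.62. In either direction these were 20% and 26.7% of the list, below the 31.9% and 30.9% of all tested genes that were called. Its called genes lay in 1 direction in each comparison, and in that direction the list stood above all tested genes. Of those, 12.4% were called higher with stimulation and 14.3% lower with TRAIL. By adjusted p alone, 22 of the 45 rose and 5 fell with stimulation, and 3 rose and 30 fell with TRAIL, where 28.8 and 40% and then 33.5% each of all tested genes did. Stmn1, the most abundant of them, codes for a microtubule destabilizer and measured 66.0 to 81.7 TPM in medium, 127 to 132 TPM after stimulation and 69.5 to 72.8 TPM with TRAIL. Cenpk, a subunit of the inner kinetochore, had the largest change with TRAIL (-1.91, adjusted p = 3.8e-05).

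DNA replication genes moved further than the mitotic ones on the same scale. With stimulation 21 of 32 (65.6%) were called higher (12.4% of all tested genes), at a median of 1.28, and with TRAIL 25 (78.1%) were called lower (14.3% of all), at a median of -1.61. The mitotic genes' medians of 0.14 and -0.52 stand beside these, and a test of the difference between the lists was not made. Uhrf1, which carries DNA methylation through replication, had a log2 fold change of -3.00 with TRAIL, whereas Pcna, the sliding clamp and the most abundant of the list, did not pass with TRAIL against stimulated cells (-0.33, adjusted p = 0.10). Summed TPM of the 32 genes was 1145 to 1256 in medium, 3019 to 3221 after stimulation and 1186 to 1238 with TRAIL.

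The 15 core subunits of the anaphase-promoting complex had a summed TPM of 699 to 713 in medium, 703 to 780 after stimulation and 533 to 642 with TRAIL. None was called with stimulation by limma (3 were higher and 2 lower at an unadjusted p under 0.05) and 1, Anapc11, was called lower with TRAIL (-1.02, adjusted p = 4.1e-04), beside 31.9% and 30.9% of all tested genes called. By adjusted p alone 3 of the 15 rose and none fell with stimulation (28.8% and 40% of all tested genes), and 1 rose and 10 fell with TRAIL (33.5% each). Anapc5, the most abundant, changed by -0.32 with TRAIL (adjusted p = 0.023). Of the 9 cohesin genes, which hold sister chromatids together, none was called by limma in any comparison, though by adjusted p 1 rose and 3 fell with stimulation and 2 rose and 1 fell with TRAIL, beside the same shares of all. At an unadjusted p under 0.05 the cohesin counts were 2 higher and 3 lower with stimulation, 2 higher and 1 lower with TRAIL, and 1 lower for TRAIL against medium. The SMC subunit gene Smc1a fell with TRAIL (-0.54, adjusted p = 0.0042), and Nipbl, the loader, rose (0.74, adjusted p = 0.016).

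A list of 15 regulators held regulators of these genes and 4 of the CDK kinases (Wee1, Pkmyt1, Cdc25a and Cdc25b). Of the 15, 3 were called higher and 1 lower with stimulation (26.7% in all). With TRAIL 1 was called higher and 5 lower (40% in all), beside 31.9% and 30.9% of all tested genes. Mybl2, the B-MYB subunit that turns MuvB into an activator, measured 5.02 to 5.84 TPM in medium, 21.3 to 29.1 TPM after stimulation and 3.40 to 4.37 TPM with TRAIL, and E2f4, a DREAM component, fell with TRAIL (-1.35, adjusted p = 3.8e-06). Foxm1, the activator of many mitotic genes, measured 7.07 to 8.47, 5.17 to 8.35 and 6.54 to 8.04 TPM in the 3 groups, and its libraries overlapped throughout (-0.10, adjusted p = 0.63 with stimulation, and -0.01, adjusted p = 0.94 with TRAIL). Among 12 housekeeping genes, 3 were called higher and 1 lower with stimulation (33.3%) and 1 higher and 2 lower with TRAIL (25%), close to those shares of all tested genes. Eef1a1, the most abundant, changed by -0.13 with TRAIL (adjusted p = 0.29), and Gapdh had the largest change (-2.46), with 1 stimulated library at 545 TPM and the other 2 at 97.0 and 98.0 TPM.

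**Figure D5:**
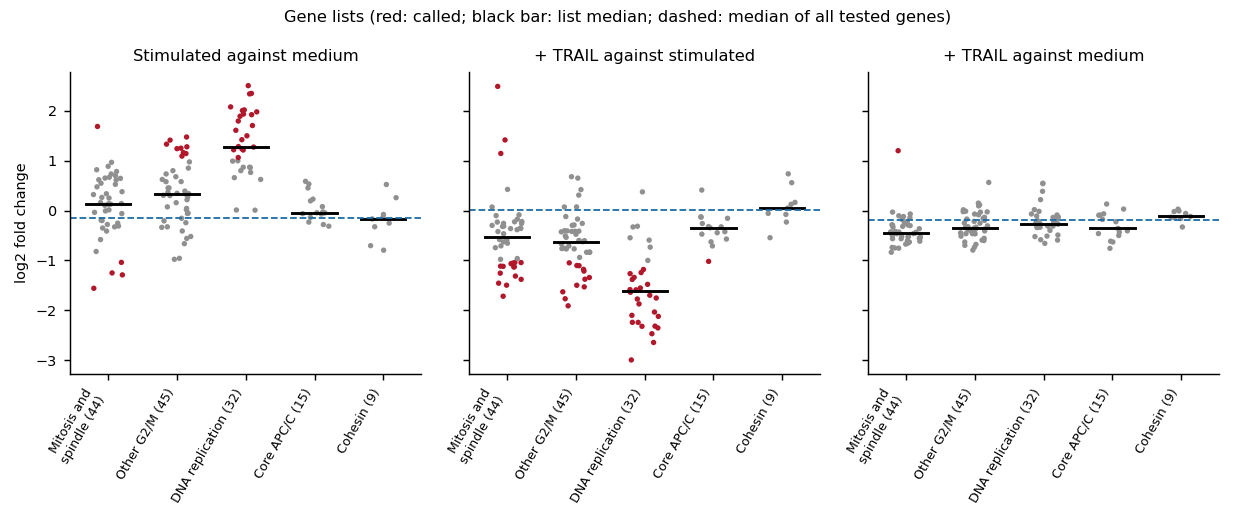
log2 fold change of each gene (points; red, called) in 5 lists for the 3 comparisons, with the median of each list (black bar) and of all tested genes (dashed line). DNA replication genes reach medians of 1.28 and -1.61 in the first 2 panels, and the 44 mitosis and spindle genes 0.14 and -0.52, with Cenpa, Smc4 and Kif23 as the red points above 0 in the middle panel.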

How the data were processed

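The 9 mRNA libraries, 3 in each of 3 groups, were made with a SureSelect kit from RNA extracted with TRIzol. The submitters' processing notes name Trimmomatic 0.36, HISAT2 2.1.0, SAMtools 1.2, StringTie 2.1.2 and DESeq2. Values deposited by the authors are TPM, per library and gene; the program behind them and the strand setting are not given in the sources used here. The notes name a human build, while the study's methods name GRCm38, and 99.343% of the 55227 genes found in GENCODE M21 (of 55487) had the same GRCm38 locus. TPM keeps no read totals, so depth is unknown and precision rests on 3 libraries per group. In each library 57.65 to 60.13% of genes were listed at 0.0001 TPM, and 305 values were lower.

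The 3 comparisons used limma 3.58.1 under R 4.3.3 (lmFit, contrasts.fit, eBayes with trend). Values of log2(TPM + 1) of 9 libraries and 15536 genes entered a single model, with Benjamini-Hochberg adjustment over all of them. Transcript lengths are GENCODE's longest per gene (99.89% of tested genes). Figures were drawn with Python 3.11.15 and matplotlib 3.10.9. In each role, values per library are given for the member with the highest mean TPM. They are also given for the members of each role with the largest rise and fall for TRAIL against stimulated cells. Mki67, Cdk1 and Top2a are given per library too, and Foxm1 by its range in each group. Of each other list, the most abundant gene and the one with the largest change are named. Marker lists are given by their sums, and the values of some marker genes are not reported here. The members, lists and rules were chosen with earlier results of these data known. Alternatives varied the pseudocount (0.1 or 5), filter, scaling, variance trend, libraries, block, threshold and promoter window, and removal of the length trend was added after seeing the data.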

Additional observations from a re-analysis of the deposited data

How the results depend on the processing

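With a pseudocount of 5, which shrinks low genes, members called numbered 3 for stimulation and 7 for TRAIL against stimulated cells (all genes 2946 and 2883, and 332 for TRAIL against medium), and with one of 0.1 all genes called for TRAIL against medium rose to 1167. Without the 2-fold threshold the members passing were 24, 32 and 24 in the 3 comparisons (all genes 10678, 10420 and 5063). The members' median for stimulation was 0.41 with quantile normalization and 0.38 with the length trend removed. For TRAIL against stimulated cells it was -0.35 with a pseudocount of 5, and for TRAIL against medium -0.31 with a pseudocount of 5, -0.30 with quantile normalization, -0.29 with median-of-ratios scaling and -0.24 with the length trend removed. With 1 library left out at a time, members called ranged from 5 to 6, 14 to 18 and 1 to 1, their medians from 0.11 to 0.23, -0.62 to -0.47 and -0.48 to -0.40, and all genes called from 4558 to 5018, 4461 to 4832 and 624 to 791. The extremes of the TRAIL contrast were 14 without TRAIL-treated replicate 3 and -0.62 without stimulated replicate 1. Among single calls with TRAIL, Ccnb1 was lost in 7 of 20 alternatives, Tpx2 in 4 and Ncapg in 3; the cause was not tested. No result changed sign while called. Depth is unknown, so counting error could not be separated from the spread between libraries.

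Whether replicate numbers mark pairs is not given in the labels. Deviations from the group means correlated at -0.31 to 0.30 for the 9 same-numbered pairs and at -0.38 to 0.29 for the 18 others. These values cannot decide it, because deviations within a group depend on each other and some libraries lean with transcript length. With the replicate number as a block, members called were 5, 17 and 1 and all genes called 4960, 4802 and 714.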
